A study of Mus musculus with 192 samples.

Results

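The Hox genes encode homeodomain transcription factors and lie in 4 clusters, Hoxa to Hoxd. Here 38 of them were read by symbol in a table of 41128 mouse genes, with no filter on low counts, in all 192 RNA libraries of a hippocampus study. The Hoxa cluster is on chromosome 6 with 10 of the genes, Hoxb on chromosome 11 with 10, Hoxc on chromosome 15 with 9 and Hoxd on chromosome 2 with 9. The animals were wild-type (WT) mice and zQ175 mice, which model Huntington's disease: a knock-in allele carries an expanded CAG repeat in the mouse Htt gene and therefore expresses mutant huntingtin wherever that gene is active. Mice were left untreated or received a small interfering RNA (siRNA): a non-targeting control (NTC), HTT-10150 against full-length HTT, or HTT-634 and HTT-486 given together against HTT1a, the short transcript that ends within the first intron (written HTT-634.486). Regimen 2[4]6 means treatment at 2 months of age and hippocampus taken at 6 months, in 6[4]10 mice were treated when 6 months old and collected at 10 months, and 2.6[8]10 treatment at both 2 and 6 months and collection at 10 months. Each regimen had its own untreated mice, so 3 regimens, 2 genotypes and 4 treatments gave 24 groups, each of 8 mice with 4 females and 4 males. The labels describe the 8 libraries of a group as separate mice, and they name no batch.

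In the embryo, Hox genes are switched on in the order in which they sit along their cluster, and the combination that stays active marks a cell's position along the body axis. Low-numbered genes are active from the hindbrain down and high-numbered genes at the trunk and tail end, while the forebrain, from which the hippocampus derives, forms outside the Hox domain and keeps the clusters silenced by Polycomb complexes. Hox proteins bind DNA together with the cofactors Pbx and Meis, and retinoic acid is a classic inducer of the genes at the start of each cluster.

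The promoters of 3 members are shown because these genes stand for the patterns described below: Hoxa2 had the highest level per length in untreated zQ175 mice at 10 months, Hoxc4 was raised there from near 0 in another cluster, and Hoxd1 was read in both genotypes. Each line gives 300 bases around the RefSeq start, most of them before it, 5′ to 3′ on the gene's strand (RefSeq, GRCm38.p6), with each CG, the site of DNA methylation, in capitals.
Hoxa2: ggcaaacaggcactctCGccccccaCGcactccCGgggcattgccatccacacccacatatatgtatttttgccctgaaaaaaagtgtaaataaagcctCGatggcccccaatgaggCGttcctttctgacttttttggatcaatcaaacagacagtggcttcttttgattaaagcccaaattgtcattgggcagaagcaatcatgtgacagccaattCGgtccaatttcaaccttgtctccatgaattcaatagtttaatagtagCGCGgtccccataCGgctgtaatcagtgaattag
Hoxc4: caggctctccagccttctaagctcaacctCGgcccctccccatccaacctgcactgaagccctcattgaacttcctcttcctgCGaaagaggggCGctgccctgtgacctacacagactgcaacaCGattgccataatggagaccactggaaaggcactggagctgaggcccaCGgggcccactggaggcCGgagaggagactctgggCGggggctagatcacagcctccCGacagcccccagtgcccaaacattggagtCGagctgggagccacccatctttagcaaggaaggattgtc
Hoxd1: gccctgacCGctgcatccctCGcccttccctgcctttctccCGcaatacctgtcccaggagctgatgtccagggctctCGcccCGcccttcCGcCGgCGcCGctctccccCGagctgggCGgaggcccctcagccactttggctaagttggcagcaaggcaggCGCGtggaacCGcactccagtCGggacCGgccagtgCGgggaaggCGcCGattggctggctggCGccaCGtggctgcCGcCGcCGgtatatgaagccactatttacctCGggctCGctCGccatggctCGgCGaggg
The Hoxa2 promoter is at chr6:52164782-52165081 on the minus strand and holds 9 CG, a motif that reads the same on both strands. The Hoxc4 promoter is at chr15:103034145-103034444 on the plus strand and holds 9 CG. The Hoxd1 promoter is at chr2:74762730-74763029 on the plus strand and holds 29 CG. Of the 32851 promoters in the RefSeq table, 45.8% held at least 9 CG and 12.9% at least 29. The table matched 22 of the 38 members with 24 promoters, whose CG count ranged from 4 to 45 with a median of 14.5, against a median of 7 over all promoters.

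Library totals ran from 8.44 to 56 M reads in 2[4]6, from 13.4 to 41.3 M in 6[4]10 and from 13 to 65.7 M in 2.6[8]10. Levels are CPM, counts per M (mega) reads with TMM factors, so in a library of 20.8 M reads, the median here, 1 read is worth a small fraction of 1 CPM and most values below concern a handful of reads. Htt, the targeted gene, averaged 66.9 to 115.2 CPM over the 6 HTT-10150 groups and 141.6 to 179 CPM over the 6 NTC groups; reads of HTT1a and of the full transcript fall on 1 gene in this table, and the HTT-634.486 groups averaged 136 to 175.6 CPM. The hippocampal neuron markers Prox1, C1ql2, Neurod6, Spink8 and Rbfox3 were read in every group. In 3 libraries Xist and Y-linked transcripts did not match the labelled sex. Female 4 and male 4 of the zQ175 HTT-10150 group of 6[4]10 showed those of the opposite sex. Female 2 of the WT NTC group of 2.6[8]10 showed neither, with Xist at 0.687 and Y-linked transcripts at 0.61 CPM. A pair of libraries stood apart in Hox reads, each with a summed Hox level over 5 times that of any other library of its group: female 4 of the zQ175 HTT-10150 group of 2[4]6 at 12.7 CPM against 0.23 to 0.9995 in the other 7, and male 2 of the zQ175 HTT-10150 group of 6[4]10 at 98.99 CPM against 3.17 to 6.12. Calls that rest on them are given with and without them. The levels given per gene for their groups include them, so the highest value under HTT-10150 in 2[4]6 and 6[4]10 is often theirs. For Hoxa3, Hoxa4, Hoxc4 and Hoxc6 in 6[4]10 the highest of the other 7 was 0.35, 0.22, 1.385 and 0.87 CPM. Since the 8 groups of a regimen share 1 estimate of the spread, these libraries also touch comparisons that do not include their group.

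Hox RNA was nearly absent from WT hippocampus and present at a low level in zQ175 hippocampus at 10 months. Summed over the 38 genes, untreated zQ175 mice had a lowest, median and highest level of 3.33, 5.55 and 7.88 CPM in 6[4]10 and 3.33, 5.63 and 7.499 CPM in 2.6[8]10, where untreated WT mice had 0.081, 0.48 and 0.57 and 0.30, 0.41 and 0.63 CPM. Every untreated zQ175 library of 10 months lay above every untreated WT library of its regimen. At 6 months the sums were 0.54, 0.9998 and 1.105 CPM in untreated zQ175 and 0.25, 0.38 and 0.48 CPM in untreated WT mice, again without overlap but far closer together. The means with their SD (n = 8) were 0.91 ± 0.21 CPM in zQ175 against 0.38 ± 0.083 in WT in 2[4]6, 5.36 ± 1.51 against 0.43 ± 0.16 in 6[4]10 and 5.58 ± 1.23 against 0.45 ± 0.11 in 2.6[8]10. All 12 WT groups averaged between 0.38 and 0.68 CPM. In bulk tissue, more cells with a transcript and more transcript per cell cannot be told apart.

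In untreated mice of 10 months all 4 clusters had a higher mean sum in zQ175 than in WT, to unequal degrees. The cluster sums were not tested. The Hoxa cluster summed to 2.43 ± 0.69 CPM in untreated zQ175 mice of 6[4]10 and 2.62 ± 0.63 in 2.6[8]10, against 0.17 ± 0.10 and 0.19 ± 0.092 in WT. The Hoxc cluster summed to 1.95 ± 0.70 CPM in untreated zQ175 mice of 6[4]10 and 1.98 ± 0.46 in 2.6[8]10, against 0.033 ± 0.044 and 0.0082 ± 0.023 in WT. Those clusters held most of the Hox reads of zQ175 mice. The Hoxb cluster summed to 0.56 ± 0.17 and 0.49 ± 0.26 CPM against 0.086 ± 0.098 and 0.13 ± 0.082 in WT. The Hoxd cluster summed to 0.43 ± 0.14 and 0.49 ± 0.23 CPM against 0.14 ± 0.079 and 0.12 ± 0.094 in WT. The Hoxb and Hoxd sums overlapped between the untreated genotypes in both regimens. Among NTC mice the Hoxd sum was 0.34 ± 0.13 CPM in zQ175 against 0.28 ± 0.14 in WT in 6[4]10. In 2.6[8]10 it was 0.41 ± 0.13 against 0.18 ± 0.089.

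**Figure D1:**
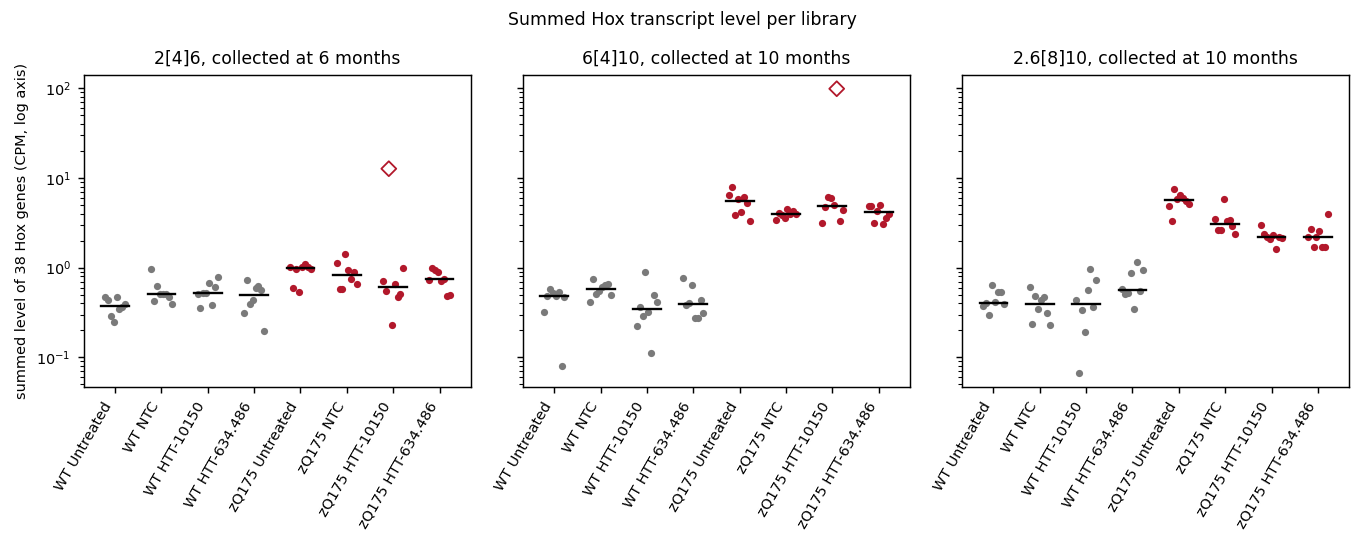
Summed Hox level per library in CPM on a log axis, for the 24 groups by regimen and treatment (points, 8 mice per group, WT and zQ175 in separate colours, bars at the group median). The untreated zQ175 libraries of 10 months sit between 3.33 and 7.88 CPM, all above the untreated WT libraries, and the HTT-10150 libraries at 12.7 and 98.99 CPM stand apart from their groups.

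The number of Hox genes with at least 1 read shows the same split: a median of 19.5 of 38 genes per library in untreated zQ175 mice of 6[4]10 and 19 in 2.6[8]10, against 4.5 and 3.5 in untreated WT mice. At 6 months the medians were 9 and 6. With at least 3 reads asked for, the medians were 10.0, 11 and 2.5 genes in zQ175 and 1.5, 1 and 1.5 in WT mice. Detection depends on depth: the untreated groups of 2.6[8]10 held 189.3 M effective reads in zQ175 and 123.9 M in WT, those of 6[4]10 211.8 and 198.9 M. In the latter, where the genotypes were read almost equally deep, every untreated zQ175 library had at least 16 Hox genes with a read and no untreated WT library had more than 7.

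**Figure D2:**
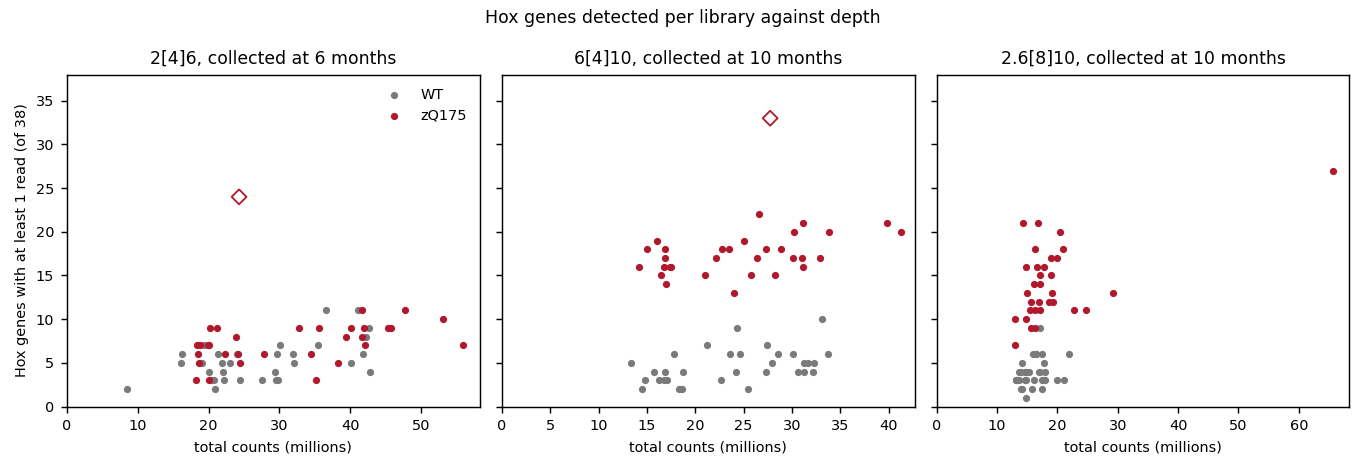
Number of Hox genes with at least 1 read (of 38) against library total, one panel per regimen, one point per library of all 4 treatments, WT grey and zQ175 red (open diamonds: the libraries that stand apart). In 6[4]10 the zQ175 libraries had 13 to 33 genes and the WT libraries 2 to 10; in 2.6[8]10 the ranges were 7 to 27 and 1 to 9.

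Between untreated genotypes, 1 Hox gene passed the test at 6 months and 10 and 12 at 10 months, all of them higher in zQ175. Each gene was tested with edgeR's quasi-likelihood test, with Benjamini-Hochberg adjustment over all genes with a read in the regimen and a threshold of 0.05. In 6[4]10, untreated, 10 of 33 tested Hox genes were raised (Hoxa2, Hoxa3, Hoxa4, Hoxa5, Hoxa7, Hoxb13, Hoxc4, Hoxc5, Hoxc6 and Hoxc13), where 2.45% of all tested genes were. In 2.6[8]10 it was 12 of 34 (Hoxa2, Hoxa3, Hoxa4, Hoxa5, Hoxa7, Hoxb8, Hoxb9, Hoxb13, Hoxc4, Hoxc6, Hoxc13 and Hoxd8), beside 2.56% of all genes. In 2[4]6 only Hoxa7 of 29 tested was raised, beside 0.884%. No Hox gene was lowered in any of these comparisons, in which 0 were also lower at an unadjusted p under 0.05, and DESeq2 called 0 lower as well. Counts at an unadjusted p, here and below, stand without the share of all genes at that threshold. They are therefore not read as results about the Hox genes. The median log2 fold change over the tested Hox genes was 2.09 in 6[4]10, 1.82 in 2.6[8]10 and -0.04 in 2[4]6, and over all tested genes it was 0.00082, 0.0043 and 0.0049. Without the library that stands apart, 15 were raised in 6[4]10 (all genes 2.89%) and 2 in 2[4]6 (all genes 0.84%). DESeq2 called 6, 4 and 1 Hox genes raised in 6[4]10, 2.6[8]10 and 2[4]6, and gave no adjusted p for 4, 8 and 0 of those called by edgeR. With all mice of a replicate number left out in turn, the calls of Hoxa4 (without replicate 3), Hoxa7 (3) and Hoxc5 (3 and 4) in 6[4]10 were lost, as were those of Hoxb8 (1, 2 and 4), Hoxb9 (each time) and Hoxd8 (1, 3 and 4) in 2.6[8]10 and of Hoxa7 (1, 3 and 4) in 2[4]6.

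NTC mice were a separate set of animals in both genotypes. Raised by edgeR's test were 10 Hox genes in 6[4]10, the same 10 by name as in untreated mice (all genes 3.19%), 10 in 2.6[8]10 (all genes 2.17%) and Hoxc6 alone in 2[4]6 (all genes 1.22%). The 10 of 2.6[8]10 were Hoxa2, Hoxa3, Hoxa4, Hoxa5, Hoxa7, Hoxb2, Hoxc4, Hoxc5, Hoxc6 and Hoxc13. Without the libraries that stand apart the counts were 12 in 6[4]10 (all genes 3.41%) and 2 in 2[4]6 (all genes 1.15%). DESeq2 called 6 in 6[4]10, 1 in 2.6[8]10 and 0 in 2[4]6, and gave no adjusted p for 4, 9 and 1 of those called by edgeR. With a replicate number left out, Hoxb13 in 6[4]10, Hoxb2 in 2.6[8]10 and Hoxc6 in 2[4]6 were lost each time. Hoxa4 (without replicate 3), Hoxa5 (1, 3 and 4), Hoxa7 (1 and 4) and Hoxc13 (1) in 6[4]10 were lost at least once, and so were Hoxa4 and Hoxc5 (4) and Hoxa5 and Hoxc13 (2, 3 and 4) in 2.6[8]10. For untreated mice of 10 months the values of several genes did not overlap between genotypes at all: every zQ175 library lay above every WT library for 9 Hox genes in 6[4]10 (Hoxa2, Hoxa3, Hoxa5, Hoxa7, Hoxb8, Hoxb13, Hoxc4, Hoxc6 and Hoxc13; all genes 0.714%) and for 7 in 2.6[8]10 (Hoxa2, Hoxa4, Hoxa5, Hoxa7, Hoxc4, Hoxc6 and Hoxc13; all genes 0.657%), and for 0 in 2[4]6 (all genes 0.218%). Among NTC mice it was 7 Hox genes in 6[4]10 (Hoxa2, Hoxa3, Hoxa4, Hoxc4, Hoxc5, Hoxc6 and Hoxc13; all genes 0.699%) and 3 in 2.6[8]10 (Hoxa2, Hoxc4 and Hoxc6; all genes 0.544%).

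**Figure D3:**
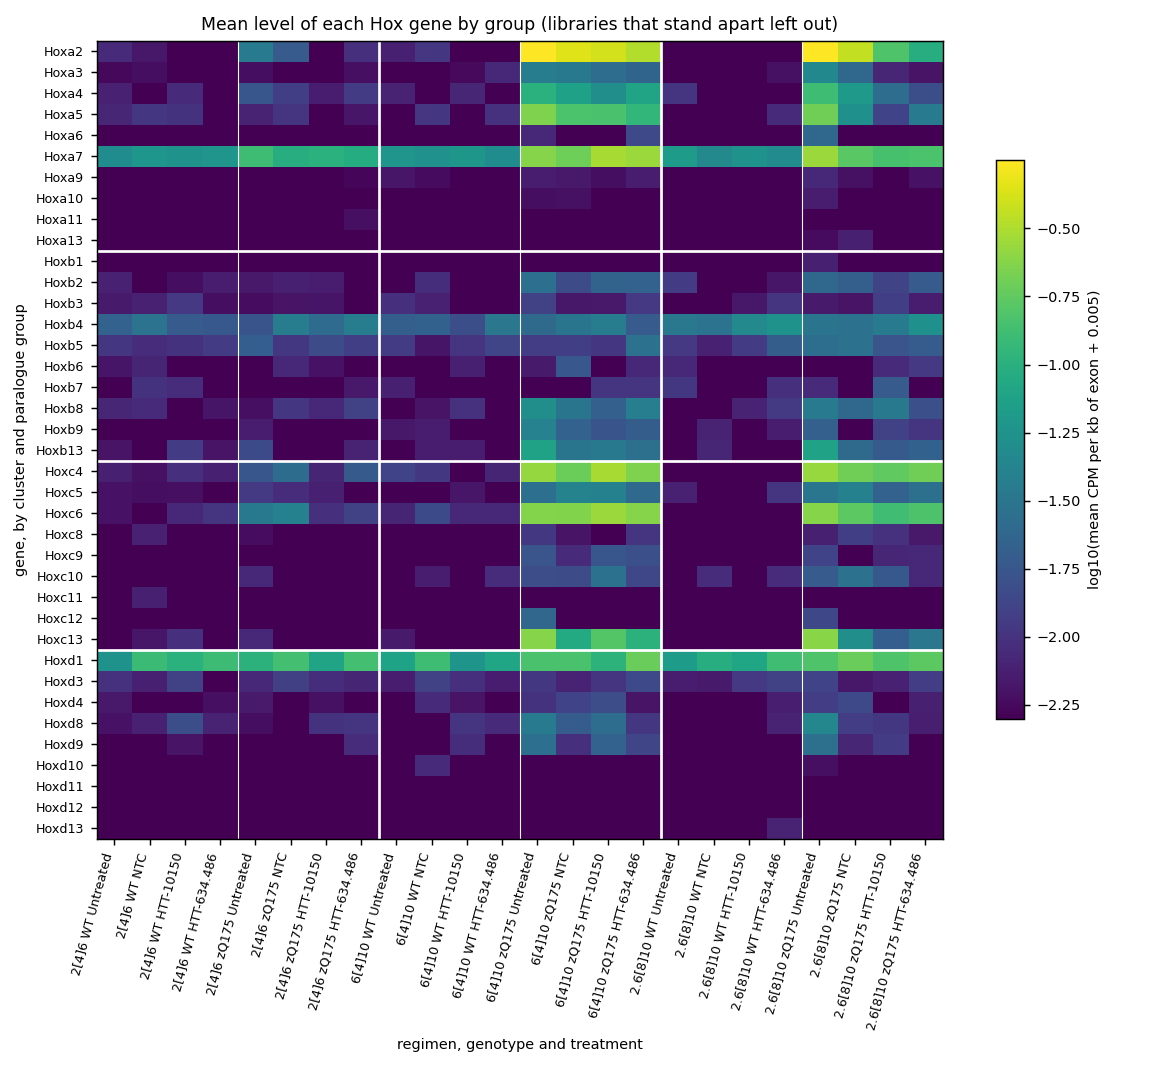
Mean level of each Hox gene (rows, by cluster and paralogue number) in each of the 24 groups (columns), as log10 of CPM per kilobase of exon plus 0.005, brighter for higher; the libraries that stand apart are left out. At 10 months in zQ175 the bright rows include Hoxa2 to Hoxa5, Hoxa7, Hoxc4 to Hoxc6 and Hoxc13, while Hoxa7, Hoxb4 and Hoxd1 also show in WT.

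Hoxa2, which patterns the second branchial arch and the hindbrain, was the Hox gene with the most reads in untreated and NTC zQ175 mice of 10 months (chromosome 6, 52162417 to 52164831, minus strand, GENCODE vM21 on GRCm38). Of the 96 WT libraries 6 held a Hoxa2 read, and the highest stood at 0.047 CPM. Hoxa2 in 6[4]10 zQ175 mice was at 0.74, 0.91 and 1.31 CPM untreated, 0.55, 0.78 and 0.98 under NTC, 0.41, 0.74 and 0.90 under HTT-10150 and 0.41, 0.57 and 0.77 under HTT-634.486. Hoxa2 in 2.6[8]10 zQ175 mice was at 0.57, 1.02 and 1.46 CPM untreated, 0.44, 0.66 and 0.83 under NTC, 0.059, 0.23 and 0.52 under HTT-10150 and 0, 0.078 and 0.53 under HTT-634.486. All 16 untreated and all 16 NTC libraries of 10 months lay above the highest WT library. Hoxa2 in 2[4]6 zQ175 mice was at 0, 0.058 and 0.10 CPM untreated, 0, 0.024 and 0.083 under NTC, 0, 0 and 0.60 under HTT-10150 and 0, 0 and 0.048 under HTT-634.486. Pooled over the 8 untreated libraries of a genotype, Hoxa2 had 213 reads against 1, a ratio of 200.0 with an interval of 35.5 to 7938 in 6[4]10, and no read in WT, at least 38.2-fold higher in 2.6[8]10. The intervals are 95% and, like the floor of 3 reads over the group that stands in for a WT count of 0, cover counting error only. Its adjusted p between untreated genotypes was 5.73e-19 in 6[4]10, 1.02e-07 in 2.6[8]10 and 0.370 in 2[4]6, where it had 13 reads against 2, a ratio of 6.83 with an interval of 1.54 to 62.3. Of its exon bases 15% are shared with the gene model Gm28308 on the same strand.

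Hoxa3, Hoxa4 and Hoxa5, which act in the pharyngeal arches, neck and brainstem, had fewer reads than Hoxa2. Hoxa3 in 6[4]10 zQ175 mice was at 0.059, 0.16 and 0.40 CPM untreated, 0.030, 0.18 and 0.33 under NTC, 0, 0.14 and 1.78 under HTT-10150 and 0.034, 0.12 and 0.15 under HTT-634.486. Hoxa3 in 2.6[8]10 zQ175 mice was at 0, 0.23 and 0.56 CPM untreated, 0, 0.11 and 0.33 under NTC, 0, 0 and 0.10 under HTT-10150 and 0, 0 and 0.067 under HTT-634.486. Its median in 2[4]6 was 0 in all 4 zQ175 groups. Of the 96 WT libraries 5 held a Hoxa3 read, and the highest stood at 0.17 CPM. Untreated zQ175 mice had 44 reads against 0, at least 13.8-fold higher than WT in 6[4]10 (adjusted p = 3.21e-04) and 47 reads against 0, at least 10.2-fold higher in 2.6[8]10 (adjusted p = 4.91e-05). Antisense transcripts, Hoxaas2 and Hoxaas3 among them, cover 25.4% of the Hoxa3 exons, and the strandedness of the libraries is not given in the sources used here. Hoxa4 in 6[4]10 zQ175 mice was at 0, 0.15 and 0.28 CPM untreated, 0.043, 0.10 and 0.22 under NTC, 0, 0.072 and 1.51 under HTT-10150 and 0, 0.096 and 0.29 under HTT-634.486. Hoxa4 in 2.6[8]10 zQ175 mice was at 0.097, 0.18 and 0.35 CPM untreated, 0, 0.063 and 0.24 under NTC, 0, 0.026 and 0.12 under HTT-10150 and 0, 0 and 0.067 under HTT-634.486. Hoxa4 had 37 reads against 1, a ratio of 34.8 with an interval of 5.86 to 1409 between untreated genotypes in 6[4]10 (adjusted p = 0.00360) and 35 reads against 1, a ratio of 22.9 with an interval of 3.85 to 930.1 in 2.6[8]10 (adjusted p = 5.30e-04). 6 of the 96 WT libraries held a Hoxa4 read, and the highest stood at 0.066 CPM. In 2[4]6 the Hoxa4 median was 0 in each zQ175 group.

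Hoxa5 ranged widely between untreated mice of the same group. Hoxa5 in 6[4]10 zQ175 mice was at 0.049, 0.39 and 0.90 CPM untreated, 0.060, 0.29 and 0.48 under NTC, 0.11, 0.29 and 7.99 under HTT-10150 and 0.058, 0.18 and 0.47 under HTT-634.486. Hoxa5 in 2.6[8]10 zQ175 mice was at 0.18, 0.38 and 0.49 CPM untreated, 0, 0.082 and 0.29 under NTC, 0, 0 and 0.12 under HTT-10150 and 0, 0.030 and 0.20 under HTT-634.486. All untreated zQ175 libraries of 10 months held Hoxa5 reads, but under the active siRNAs in 2.6[8]10 the medians were at or near 0. Untreated zQ175 had 92 reads against 0, at least 28.8-fold higher in 6[4]10 (adjusted p = 4.93e-04) and 73 reads against 0, at least 15.9-fold higher in 2.6[8]10 (adjusted p = 8.43e-06). Of the 96 WT libraries 7 held a Hoxa5 read, and the highest stood at 0.084 CPM. At 6 months its median was 0 in all 4 zQ175 groups.

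Hoxa7, a trunk-level gene, was the exception of the cluster in that WT hippocampus held it too. Of the 96 WT libraries 85 held a Hoxa7 read, and the highest stood at 0.33 CPM. Untreated WT mice had 0.048, 0.14 and 0.19 CPM in 2[4]6, 0, 0.15 and 0.32 in 6[4]10 and 0.059, 0.16 and 0.31 in 2.6[8]10. Hoxa7 in 2[4]6 zQ175 mice was at 0.100, 0.39 and 0.59 CPM untreated, 0.13, 0.23 and 0.46 under NTC, 0.029, 0.29 and 1.04 under HTT-10150 and 0.16, 0.25 and 0.38 under HTT-634.486. Hoxa7 in 6[4]10 zQ175 mice was at 0.41, 0.68 and 0.99 CPM untreated, 0.26, 0.56 and 0.80 under NTC, 0.49, 0.83 and 10.4 under HTT-10150 and 0.26, 0.82 and 1.31 under HTT-634.486. Hoxa7 in 2.6[8]10 zQ175 mice was at 0.36, 0.81 and 1.07 CPM untreated, 0.25, 0.39 and 1.05 under NTC, 0.18, 0.42 and 0.53 under HTT-10150 and 0.15, 0.38 and 0.89 under HTT-634.486. The untreated genotypes did not overlap at 10 months and did at 6 months. With reads in both genotypes its fold can be fitted: zQ175 exceeded WT by 1.49 ± 0.39 on the log2 scale (SE; adjusted p = 0.0230) in 2[4]6, 2.16 ± 0.51 (adjusted p = 0.00307) in 6[4]10 and 2.08 ± 0.39 (adjusted p = 2.11e-04) in 2.6[8]10. Hoxaas3 on the other strand covers 20.4% of the Hoxa7 exons but was itself nearly unread, at most 0.060 CPM in any untreated library.

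The rest of the Hoxa cluster was close to silent. Hoxa6 was read in 5 of the 94 zQ175 libraries that do not stand apart and in 0 of 96 WT libraries, Hoxa9 in 13 and 3, and Hoxa10 in 3 and 0. Hoxa11 had 1 read and Hoxa13 had 2 reads in all, each in zQ175. Their group medians were 0 throughout. Hoxa9 alone of them was called between genotypes, under HTT-10150 in 6[4]10, and that call was lost without the library that stands apart.

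In the Hoxc cluster, Hoxc4 and Hoxc6, which mark the neck and upper trunk levels of the spinal cord, rose from near 0. Hoxc4 in 6[4]10 zQ175 mice was at 0.29, 0.69 and 0.88 CPM untreated, 0.36, 0.44 and 0.68 under NTC, 0.34, 0.75 and 4.87 under HTT-10150 and 0.23, 0.51 and 0.94 under HTT-634.486. Hoxc4 in 2.6[8]10 zQ175 mice was at 0.39, 0.57 and 1.16 CPM untreated, 0.29, 0.49 and 0.81 under NTC, 0.24, 0.42 and 0.65 under HTT-10150 and 0.080, 0.46 and 0.87 under HTT-634.486. Hoxc4 in 2[4]6 zQ175 mice was at 0, 0.032 and 0.096 CPM untreated, 0, 0.042 and 0.19 under NTC, 0, 0 and 1.04 under HTT-10150 and 0, 0.035 and 0.074 under HTT-634.486. Every untreated zQ175 library of 10 months lay above every untreated WT library, and the 6-month medians were a small fraction of those at 10 months. 10 of the 96 WT libraries held a Hoxc4 read, and the highest stood at 0.12 CPM. Untreated zQ175 had 138 reads against 4, a ratio of 32.4 with an interval of 12.4 to 120.6 in 6[4]10 (adjusted p = 7.01e-08), and no read in WT, at least 31.4-fold higher in 2.6[8]10 (adjusted p = 4.51e-09). At 6 months Hoxc4 had 7 reads against 2, a ratio of 3.68 with an interval of 0.70 to 36.3 (adjusted p = 0.715). Hoxc6 in 6[4]10 zQ175 mice was at 0.35, 0.46 and 1.09 CPM untreated, 0.32, 0.44 and 0.97 under NTC, 0.20, 0.72 and 3.46 under HTT-10150 and 0.17, 0.61 and 0.88 under HTT-634.486. Hoxc6 in 2.6[8]10 zQ175 mice was at 0.30, 0.51 and 0.92 CPM untreated, 0.12, 0.33 and 0.71 under NTC, 0.059, 0.30 and 0.59 under HTT-10150 and 0.063, 0.31 and 0.76 under HTT-634.486. Hoxc6 in 2[4]6 zQ175 mice was at 0, 0.056 and 0.18 CPM untreated, 0, 0.047 and 0.28 under NTC, 0, 0 and 0.64 under HTT-10150 and 0, 0 and 0.074 under HTT-634.486. Hoxc6 thus kept a median of at least 0.30 CPM in all 8 zQ175 groups of 10 months. Of the 96 WT libraries 11 held a Hoxc6 read, and the highest stood at 0.10 CPM. Between untreated genotypes it had 126 reads against 1, a ratio of 118 with an interval of 20.9 to 4711 in 6[4]10 (adjusted p = 1.45e-09), 103 reads against 0, at least 22.5-fold higher in 2.6[8]10 (adjusted p = 1.39e-07) and 18 reads against 1, a ratio of 18.9 with an interval of 2.98 to 788 in 2[4]6 (adjusted p = 0.110). Among NTC mice of 2[4]6 it had 19 reads against 0, at least 5.32-fold higher, with an adjusted p of 0.0282, a call lost with any replicate number left out and for which DESeq2 gave no adjusted p.

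Hoxc13, the last gene of its cluster and known from hair and nail differentiation, stood near Hoxc4 and Hoxc6 per kilobase of exon in untreated zQ175 mice of 6[4]10. Hoxc13 in 6[4]10 zQ175 mice was at 0.049, 0.46 and 1.14 CPM untreated, 0.086, 0.20 and 0.35 under NTC, 0.17, 0.42 and 7.14 under HTT-10150 and 0.12, 0.25 and 0.41 under HTT-634.486. Hoxc13 in 2.6[8]10 zQ175 mice was at 0.17, 0.68 and 0.91 CPM untreated, 0, 0.061 and 0.43 under NTC, 0, 0.017 and 0.11 under HTT-10150 and 0, 0 and 0.33 under HTT-634.486. No other gene of a paralogue group above 9 had a group median over 0.05 CPM in libraries that do not stand apart, apart from Hoxb13. Of the 96 WT libraries 3 held a Hoxc13 read, and the highest stood at 0.086 CPM. Untreated zQ175 had 131 reads against 1, a ratio of 123 with an interval of 21.7 to 4896 in 6[4]10 (adjusted p = 8.32e-05) and 119 reads against 0, at least 25.96-fold higher in 2.6[8]10 (adjusted p = 1.29e-05). All 4 zQ175 groups of 2[4]6 had a median of 0. Hoxc5 in 6[4]10 zQ175 mice was at 0, 0.068 and 0.18 CPM untreated, 0.033, 0.10 and 0.22 under NTC, 0, 0.10 and 0.65 under HTT-10150 and 0, 0.051 and 0.18 under HTT-634.486. Hoxc5 in 2.6[8]10 zQ175 mice was at 0, 0.087 and 0.14 CPM untreated, 0, 0.11 and 0.24 under NTC, 0, 0 and 0.30 under HTT-10150 and 0, 0.061 and 0.20 under HTT-634.486. Hoxc5 had fewer reads than Hoxc4 and Hoxc6, with 15 reads against 0, at least 4.696-fold higher in 6[4]10 (adjusted p = 0.0104) and 15 reads against 1, a ratio of 9.81 with an interval of 1.51 to 413 in 2.6[8]10 (adjusted p = 0.0556). It shares 5.37% of its exon bases with Hoxc10, whose highest group median in zQ175 was 0.045 CPM. Outside the libraries that stand apart, Hoxc9 was read in 17 zQ175 libraries and 0 WT libraries, Hoxc10 in 23 and 4, Hoxc8 in 13 and 1, Hoxc12 in 4 and 0, and Hoxc11 in 0 and 1. Those are 94 zQ175 and 96 WT libraries, and no single one of the 5 genes passed the test between untreated genotypes.

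The Hoxb cluster had fewer reads than Hoxa and Hoxc, and its members differed in whether WT mice held reads of them. Hoxb13 in 6[4]10 zQ175 mice was at 0.024, 0.11 and 0.30 CPM untreated, 0, 0.045 and 0.15 under NTC, 0, 0.072 and 0.62 under HTT-10150 and 0.033, 0.050 and 0.089 under HTT-634.486. Hoxb13 in 2.6[8]10 zQ175 mice was at 0, 0.14 and 0.42 CPM untreated, 0, 0.028 and 0.14 under NTC, 0, 0 and 0.13 under HTT-10150 and 0, 0 and 0.20 under HTT-634.486. Hoxb13, the cluster's last gene, known from the tail bud and prostate, had 30 reads against 0, at least 9.39-fold higher in untreated mice of 6[4]10 (adjusted p = 5.32e-05) and 28 reads against 0, at least 6.11-fold higher in 2.6[8]10 (adjusted p = 0.00114). Hoxb8 in 6[4]10 zQ175 mice was at 0.039, 0.11 and 0.33 CPM untreated, 0, 0.046 and 0.21 under NTC, 0, 0.050 and 13.4 under HTT-10150 and 0, 0.050 and 0.39 under HTT-634.486. Hoxb8 in 2.6[8]10 zQ175 mice was at 0, 0.086 and 0.14 CPM untreated, 0, 0.028 and 0.19 under NTC, 0, 0.063 and 0.20 under HTT-10150 and 0, 0 and 0.16 under HTT-634.486. Hoxb8, a trunk-level gene also known from blood and microglial lineages, had 28 reads against 0, at least 8.77-fold higher in 6[4]10, with an adjusted p of 0.112 that became 5.86e-04 without the library that stands apart. Hoxb8 in 2.6[8]10 had 15 reads against 0, at least 3.27-fold higher (adjusted p = 0.0203), a call lost without replicates 1, 2 and 4. Hoxb9 in 6[4]10 zQ175 mice was at 0, 0.081 and 0.24 CPM untreated, 0, 0.050 and 0.094 under NTC, 0, 0.028 and 9.78 under HTT-10150 and 0, 0.044 and 0.085 under HTT-634.486. Hoxb9 in 2.6[8]10 zQ175 mice was at 0, 0.030 and 0.11 CPM untreated, 0, 0 and 0 under NTC, 0, 0 and 0.060 under HTT-10150 and 0, 0 and 0.067 under HTT-634.486. Hoxb9 had 17 reads against 1, a ratio of 15.97 with an interval of 2.502 to 667 in 6[4]10 (adjusted p = 0.290, and 0.0116 without the library that stands apart) and 9 reads against 0, at least 1.96-fold higher in 2.6[8]10 (adjusted p = 0.0498), a call lost with any replicate number left out and with the replicate label as a block.

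Hoxb2 and Hoxb3, hindbrain genes, were barely read. Hoxb2 in 6[4]10 zQ175 mice was at 0, 0.088 and 0.13 CPM untreated, 0, 0.036 and 0.073 under NTC, 0, 0.020 and 2.505 under HTT-10150 and 0, 0.034 and 0.19 under HTT-634.486. Hoxb2 in 2.6[8]10 zQ175 mice was at 0, 0.053 and 0.24 CPM untreated, 0, 0.054 and 0.12 under NTC, 0, 0 and 0.10 under HTT-10150 and 0, 0.065 and 0.11 under HTT-634.486. With all libraries of a regimen kept, Hoxb2 was called in the untreated and NTC comparisons only among NTC mice of 2.6[8]10. There it had 8 reads against 0, at least 2.37-fold higher (adjusted p = 0.0388). That call was lost with any replicate number left out and without the WT NTC library whose sex-linked transcripts do not match its label. In untreated mice of 6[4]10 Hoxb2 had 17 reads against 0 and was not called in that fit. Its exons are overlapped on the other strand by Hoxb3os over 27.3%, and those of Hoxb3 over 52.9%. Hoxb3 had a median of 0 in 11 of 12 zQ175 and 11 of 12 WT groups. Hoxb4 was read in 72 of 94 zQ175 and 65 of 96 WT libraries, with group medians of 0.036 to 0.095 CPM in zQ175 and 0.015 to 0.12 in WT. Its fitted log2 difference between untreated genotypes was 0.33 ± 0.71 in 6[4]10 and -0.05 ± 0.73 in 2.6[8]10 (adjusted p = 0.929 and 1), so no difference was detectable at this depth. Hoxb5 had medians up to 0.059 CPM in zQ175 and 0.028 in WT groups. Hoxb6 was read in 10 of 94 zQ175 and 4 of 96 WT libraries, Hoxb7 in 7 and 5, and Hoxb1 in 1 and 0.

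Hoxd1, a gene known in adults from a class of pain-sensing neurons, was, with Hoxa7 and Hoxb4, one of the 3 Hox genes whose median was above 0 in all 12 WT groups. Untreated WT mice had 0, 0.077 and 0.19 CPM in 2[4]6, 0.041, 0.14 and 0.26 in 6[4]10 and 0, 0.11 and 0.24 in 2.6[8]10. Hoxd1 in 2[4]6 zQ175 mice was at 0.100, 0.18 and 0.28 CPM untreated, 0.15, 0.24 and 0.33 under NTC, 0, 0.17 and 0.36 under HTT-10150 and 0.072, 0.21 and 0.45 under HTT-634.486. Hoxd1 in 6[4]10 zQ175 mice was at 0, 0.27 and 0.43 CPM untreated, 0.065, 0.23 and 0.58 under NTC, 0.11, 0.19 and 0.29 under HTT-10150 and 0.18, 0.31 and 0.65 under HTT-634.486. Both genotypes overlapped in all 3 regimens. Hoxd1 in 2.6[8]10 zQ175 mice was at 0.15, 0.25 and 0.54 CPM untreated, 0.17, 0.32 and 0.69 under NTC, 0, 0.31 and 0.48 under HTT-10150 and 0.18, 0.31 and 0.46 under HTT-634.486. The fitted log2 difference between untreated genotypes was 0.92 ± 0.41 in 2[4]6, 0.94 ± 0.41 in 6[4]10 and 1.24 ± 0.45 in 2.6[8]10, with adjusted p-values of 0.349, 0.196 and 0.0976, none past the threshold. Pooled reads put untreated zQ175 above WT in each regimen, at ratios of 1.94 (1.18 to 3.26), 2.02 (1.26 to 3.31) and 2.43 (1.33 to 4.75), intervals that count reads and not mice. In the same order of regimens, the ratios among NTC mice were 1.107 (0.75 to 1.65), 1.135 (0.75 to 1.72) and 2.07 (1.22 to 3.635). Under HTT-634.486 they were 1.13 (0.74 to 1.72), 2.29 (1.39 to 3.91) and 1.35 (0.83 to 2.21). Under HTT-10150 they were 1.10 (0.69 to 1.76), 1.77 (0.9998 to 3.23) and 2.16 (1.21 to 4.03).

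Hoxd8 in 6[4]10 zQ175 mice was at 0, 0.071 and 0.20 CPM untreated, 0, 0.040 and 0.098 under NTC, 0, 0.057 and 6.999 under HTT-10150 and 0, 0 and 0.059 under HTT-634.486. Hoxd8 in 2.6[8]10 zQ175 mice was at 0, 0.097 and 0.23 CPM untreated, 0, 0 and 0.095 under NTC, 0, 0 and 0.067 under HTT-10150 and 0, 0 and 0.053 under HTT-634.486. Hoxd8, a trunk-level gene, had 19 reads against 0, at least 5.95-fold higher in untreated mice of 6[4]10 (adjusted p = 0.101, and 0.00138 without the library that stands apart) and 17 reads against 0, at least 3.71-fold higher in 2.6[8]10 (adjusted p = 0.00701), a call lost without replicates 1, 3 and 4. Hoxd9 had 11 reads against 0, at least 3.44-fold higher and 9 reads against 0, at least 1.96-fold higher in those regimens, with adjusted p-values of 0.265 and 0.0585. Hoxd3 and Hoxd4 share 62.3% and 52.3% of their exon bases with each other and the model Gm28230, so their reads can be split between them. Hoxd3 had group medians of at most 0.039 CPM in zQ175 and 0.035 in WT, and Hoxd4 at most 0.024 and 0. Hoxd10 had 1 read in zQ175 libraries that do not stand apart and 1 in WT, Hoxd13 0 and 1, Hoxd11 0 and 0, and Hoxd12 had no read in any library.

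Per kilobase of exon, the scale on which different genes can be compared, untreated zQ175 mice of 6[4]10 had the order Hoxa2 (0.55 ± 0.11 CPM per kb), Hoxc4 (0.26 ± 0.071 CPM per kb), Hoxc13 (0.23 ± 0.16 CPM per kb), Hoxa7 (0.23 ± 0.072 CPM per kb), Hoxc6 (0.23 ± 0.097 CPM per kb), Hoxa5 (0.22 ± 0.16 CPM per kb) and Hoxd1 (0.14 ± 0.077). Hoxa2 exceeded the next gene by more than the larger SD of the pair; from Hoxc4 down, neighbours in the order did not. In untreated zQ175 mice of 2.6[8]10 Hoxa2 again led, at 0.56 ± 0.18 CPM per kb, followed by Hoxa7, Hoxc4, Hoxc13, Hoxc6, Hoxa5 and Hoxd1 between 0.27 and 0.15. At 6 months, untreated, Hoxa7 (0.13 ± 0.053) and Hoxd1 (0.099 ± 0.034) came first, within their spread of each other and above Hoxa2 (0.031 ± 0.024).

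Untreated zQ175 mice of 10 months held more Hox RNA than those of 6 months. In a fit of all 192 libraries, 8 Hox genes were higher in 6[4]10 than in 2[4]6 (Hoxa2, Hoxa3, Hoxa4, Hoxa5, Hoxb13, Hoxc4, Hoxc6 and Hoxc13; all genes 0.567%) and 9 in 2.6[8]10 than in 2[4]6 (the former list with Hoxd8 added; all genes 1.64%), out of 37 tested. Without the libraries that stand apart, 13 were higher in 6[4]10 (all genes 0.652%). Hoxa7 and Hoxd1, which WT mice also held, were not among them in the fit of all libraries. Between the untreated zQ175 mice of 2.6[8]10 and 6[4]10, both 10 months old, edgeR called 0 Hox genes, with 1 higher and 0 lower at an unadjusted p under 0.05. Untreated WT mice gave 0 calls in each pair of regimens, and 0 Hox genes at an unadjusted p under 0.05. The test of the difference itself, the interaction of genotype with regimen, also called 0 Hox genes: 5 were higher at an unadjusted p under 0.05 in 6[4]10 against 2[4]6, 4 in 2.6[8]10 against 2[4]6 and 0 between the regimens of 10 months. Age and all else that differed between the regimens' mice cannot be told apart.

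In the regimen of repeated treatment, zQ175 mice given the control siRNA had a lower median of summed Hox RNA than untreated ones. The 2.6[8]10 summed level of zQ175 mice was 2.37, 3.09 and 5.81 CPM under NTC (lowest, median and highest of 8), against 3.33, 5.63 and 7.499 in untreated mice, and the groups overlapped. Hoxc13 alone passed the test, lower under NTC by 2.27 ± 0.54 on the log2 scale (SE; adjusted p = 0.0451; all genes 0.306%), with 18 reads in the NTC group and 119 in the untreated one. With both mice of a replicate number left out of every group, its adjusted p was 0.319, 0.288, 0.170 and 0.0214 without replicates 1, 2, 3 and 4, and DESeq2 gave 0.174. At an unadjusted p under 0.05, 8 Hox genes were lower and 0 higher, a count that cannot be set against all genes here. In 6[4]10 0 of 33 Hox genes were called (all genes 0% lowered; 2 Hox genes lower and 0 higher at an unadjusted p under 0.05, DESeq2 0), and in 2[4]6 0 of 29 (1 and 0, DESeq2 0). The NTC effect was not shown to differ between 2.6[8]10 and 6[4]10: the interaction called 0 Hox genes, with 0 at an unadjusted p under 0.05.

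Against NTC, the siRNA pair to HTT1a lowered Hoxa2 and Hoxa3 after repeated treatment. There HTT-634.486 lowered 2 of 34 Hox genes in zQ175 mice (all genes 0.412%). Hoxa2 was at 0.44, 0.66 and 0.83 CPM under NTC and 0, 0.078 and 0.53 under HTT-634.486, with reads in 8 and 5 of 8 libraries, and the groups overlapped. Its log2 change was -2.01 ± 0.46 (SE; adjusted p = 0.0187). Hoxa3 fell by 3.12 ± 0.78 (adjusted p = 0.0358), from 18 reads in the NTC group to 1, a ratio of 0.056 (95% exact counting interval 0.0014 to 0.36). Without replicates 1, 2, 3 and 4 in turn the adjusted p was 0.0699, 0.249, 0.261 and 0.00225 for Hoxa2 and 0.131, 0.353, 0.261 and 0.0590 for Hoxa3, and DESeq2 gave no adjusted p for either. HTT-10150, compared with the same NTC mice, gave 0 calls in 2.6[8]10 (all genes 0.0944% lowered), with 5 Hox genes lower and 2 higher at an unadjusted p under 0.05 and 0 calls by DESeq2. Its log2 change of Hoxa2 was -1.32 ± 0.42 (adjusted p = 0.246), beside 0.059, 0.23 and 0.52 CPM. The siRNAs compared with each other there gave 0 calls (1 higher and 0 lower unadjusted, DESeq2 0); for Hoxa2 the log2 difference of HTT-10150 from HTT-634.486 was 0.69 ± 0.50 (adjusted p = 0.917).

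Members were lower under both active treatments than in untreated mice of 2.6[8]10. This contrast does not separate an active siRNA from treatment with any siRNA. Of the calls below, only those of Hoxa2 and Hoxa3 under HTT-634.486 were also made against NTC. HTT-634.486 lowered 5 of 34 Hox genes (all genes 1.11%): Hoxa2 by 2.60 ± 0.44, Hoxa3 by 4.14 ± 0.72, Hoxa4 by 3.23 ± 0.65, Hoxa5 by 2.72 ± 0.57 and Hoxc13 by 3.21 ± 0.61 on the log2 scale. HTT-10150 lowered 4 (all genes 0.219%): Hoxa2 by 1.91 ± 0.41, Hoxa3 by 3.16 ± 0.64, Hoxa5 by 4.19 ± 0.67 and Hoxc13 by 3.65 ± 0.63. The adjusted p-values were 8.67e-04, 7.91e-04, 0.00377, 0.00510 and 0.00270 for HTT-634.486 and 0.0205, 0.00967, 5.36e-04 and 0.00239 for HTT-10150. DESeq2 gave no adjusted p for any of these 9 calls. With each replicate number left out in turn, Hoxa2 and Hoxa3 under HTT-634.486 passed each time (adjusted p up to 0.0267 and 0.0349), while the other 7 were lost at least once, each of them without replicate 2. Few reads stand behind them: over the 8 libraries Hoxa5 had 73 reads untreated, 14 under NTC, 2 under HTT-10150 and 7 under HTT-634.486, and Hoxc13 had 119, 18, 6 and 8. Where 1 to 3 reads were left, the pooled ratio to untreated was 0.028 (95% exact counting interval 0.00070 to 0.17) for Hoxa3 and 0.076 (95% exact counting interval 0.0088 to 0.30) for Hoxa4 under HTT-634.486, and 0.082 (95% exact counting interval 0.016 to 0.25) for Hoxa3 and 0.035 (95% exact counting interval 0.0042 to 0.13) for Hoxa5 under HTT-10150. Hoxc4 and Hoxc6 did not pass: their log2 differences from untreated were -0.54 ± 0.29 and -0.61 ± 0.35 under HTT-634.486 and -0.65 ± 0.30 and -0.84 ± 0.35 under HTT-10150 (adjusted p = 0.450, 0.491, 0.407 and 0.349). Whether Hoxc4 and Hoxc6 responded differently from Hoxa2 was not tested. Both comparisons share the untreated mice, and the summed level was 1.61, 2.198 and 3.01 CPM under HTT-10150 and 1.69, 2.21 and 3.94 under HTT-634.486. Every HTT-10150 library, but not every HTT-634.486 library, lay below every untreated library in the sum.

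After a single treatment, Hoxa2 was the only Hox gene that an active siRNA lowered. In 6[4]10, HTT-634.486 lowered Hoxa2 against untreated mice by 0.78 ± 0.20 on the log2 scale (adjusted p = 0.0332; all genes 0.984%), a call that was lost with any replicate number left out (adjusted p = 0.156, 0.149, 0.318 and 0.0693 without replicates 1, 2, 3 and 4). Against NTC it lowered 0 Hox genes (all genes 0.209%; 1 lower and 0 higher at an unadjusted p under 0.05, DESeq2 0), and Hoxa2 differed by -0.45 ± 0.20 (adjusted p = 0.342). HTT-10150 against NTC raised Hoxa7 and Hoxd9 (all genes 0.0411%) and against HTT-634.486 raised Hoxd8 (all genes 0.0486%), all of which were lost without the library that stands apart. In 2[4]6 it raised Hoxc13 and Hoxd8 against NTC (all genes 0.806%) and Hoxa5, Hoxb2, Hoxb3, Hoxb8 and Hoxc13 against HTT-634.486 (all genes 3.56%), and without the library that stands apart the counts were 0 and 0. Against untreated mice HTT-10150 gave 0 calls in either regimen (22 higher and 1 lower at an unadjusted p under 0.05 in 6[4]10, 8 and 0 in 2[4]6; DESeq2 0 and 0). HTT-634.486 against untreated in 2[4]6 also gave 0 calls (2 lower and 0 higher unadjusted, DESeq2 0). Against NTC, HTT-634.486 in 2[4]6 gave 0 calls (2 lower and 1 higher unadjusted, DESeq2 0). Between the regimens of 10 months, zQ175 mice under HTT-634.486 had lower Hoxa2 in 2.6[8]10 than in 6[4]10 (1 Hox gene; all genes 0.479%), and under HTT-10150 20 Hox genes were lower (all genes 0.651%), or 3 without the library that stands apart: Hoxa2, Hoxa5 and Hoxc13 (all genes 0.391%). The interaction of treatment with these regimens, the test of whether an effect differed, called 0 Hox genes for either siRNA against NTC and for HTT-634.486 against untreated (17, 3 and 5 lower and 0, 1 and 0 higher at an unadjusted p under 0.05), and for HTT-10150 against untreated 5, Hoxa3, Hoxa5, Hoxa7, Hoxc13 and Hoxd8 (all genes 0.0599%), or 0 without the library that stands apart. The direct comparison of regimens and the interaction were added after the data were seen.

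**Figure D4:**
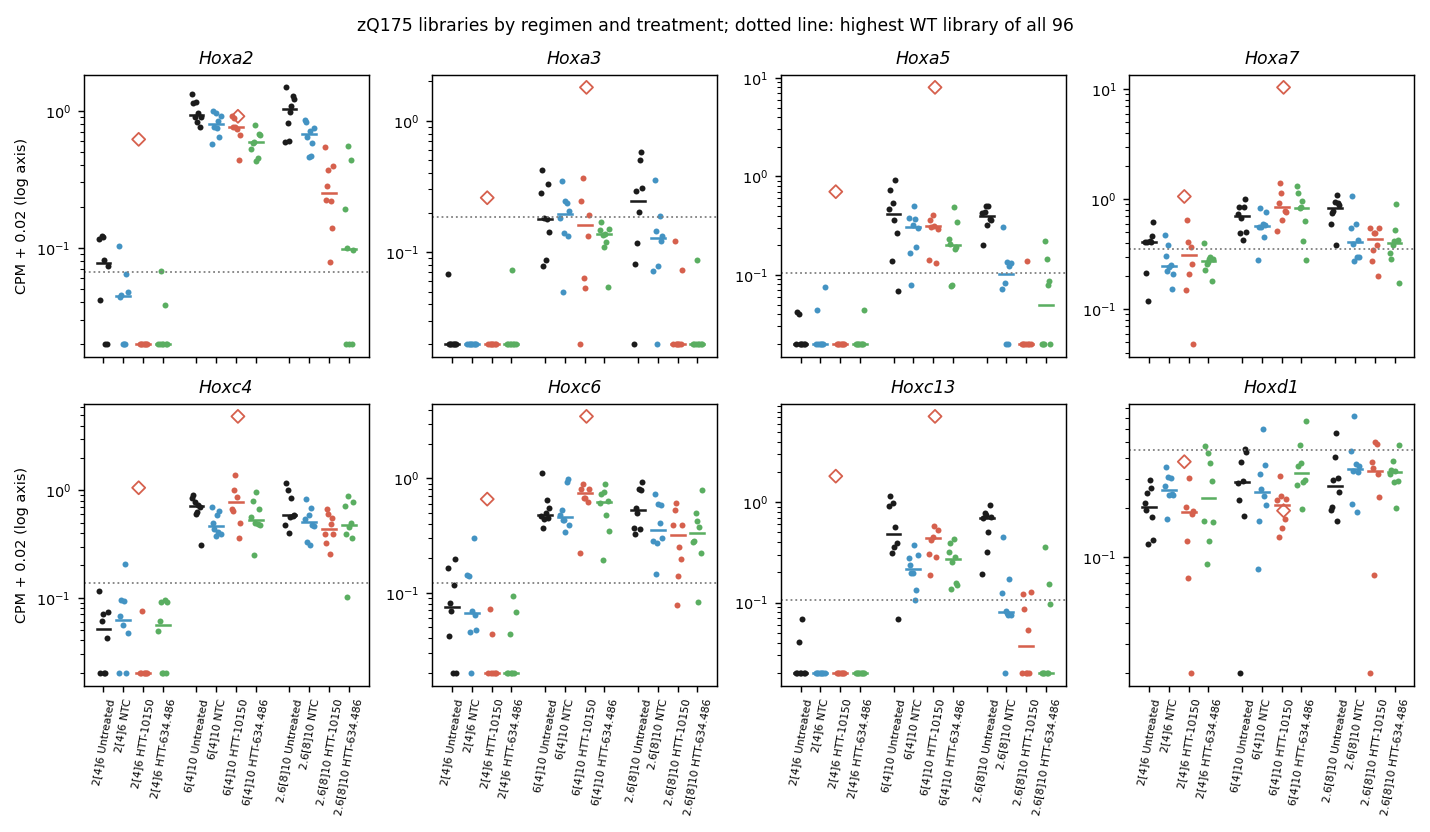
Level of 8 Hox genes in each zQ175 library, as CPM plus 0.02 on a log axis, by regimen and treatment (points, 8 mice per group; bars, medians; open diamonds, the libraries that stand apart; dotted line, the highest of the 96 WT libraries). In 2.6[8]10 the medians of Hoxa2 are 1.02 CPM untreated and 0.66, 0.23 and 0.078 under NTC, HTT-10150 and HTT-634.486, while those of Hoxd1 are 0.25 untreated and 0.31 under HTT-634.486.

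Treated zQ175 mice were also compared with WT mice given the same siRNA. In 2.6[8]10 Hoxa2, Hoxc4 and Hoxc6 were raised, 3 of 34 under HTT-10150 (all genes 2.05%) and the same 3 genes under HTT-634.486 (all genes 0.4%). The Hoxa2 call under HTT-634.486 was lost without replicates 2 and 4. Hoxa7 was not called in these fits but was in both comparisons by DESeq2 and with the filterByExpr filter, with pooled read ratios of 2.64 (1.53 to 4.77) and 3.06 (1.78 to 5.52). Hoxa2 then had 37 reads against 0, at least 10.3-fold higher under HTT-10150 and 22 reads against 0, at least 6.96-fold higher under HTT-634.486. Hoxc4 had 65 reads against 0, at least 18.1-fold higher, and 68 reads against 0, at least 21.5-fold higher. In 6[4]10, 8 Hox genes were raised under HTT-634.486 (Hoxa2, Hoxa4, Hoxa7, Hoxb13, Hoxc4, Hoxc5, Hoxc6 and Hoxc13; all genes 3.63%), or 12 without the library that stands apart (all genes 3.78%). Under HTT-10150 it was 25 (all genes 3.5%), or 12 without that library (all genes 2.5%). In 2[4]6 Hoxb8 was raised under HTT-10150 (all genes 1.62%), or 0 Hox genes without the library that stands apart (all genes 0.696%), and 0 under HTT-634.486 (all genes 0.281%; 1 higher at an unadjusted p under 0.05). Whether the genotype difference itself changed with treatment was not tested apart from the contrasts among zQ175 mice above. Among WT mice, 0 Hox genes were called between any pair of treatments compared (NTC against untreated, each active siRNA against NTC and against each other) in any regimen, with at most 2 at an unadjusted p under 0.05 in a comparison. Genotype by sex over untreated and NTC mice and males against females in zQ175 also gave 0 calls in each regimen; at an unadjusted p under 0.05 the largest count was 4 genes lower in zQ175 males, in 2.6[8]10.

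The library of male 2 in the zQ175 HTT-10150 group of 6[4]10 held far more Hox RNA than the rest of its group, mostly from genes in the middle of the clusters. Of 38 Hox genes 33 had a read, and 30 stood above all other 7 libraries of the group. The library was picked for its high Hox sum, so a high count follows from that choice. The share of all genes for which it stood highest was not computed. Hoxb8 was highest at 13.4 CPM against 0 to 0.075 in the other 7, followed by Hoxa7 at 10.4 CPM against 0.49 to 1.39 and Hoxb9 at 9.78 CPM against 0 to 0.10. Hoxa5 was at 7.99 CPM against 0.11 to 0.39, Hoxc13 at 7.14 CPM against 0.17 to 0.56, Hoxd8 at 6.999 CPM against 0 to 0.15 and Hoxd9 at 6.28 CPM against 0 to 0.13. Genes nearly unread elsewhere appeared there. Hoxc12 was at 3.603 CPM against 0 to 0, Hoxc9 at 2.57 CPM against 0 to 0.066, Hoxc8 at 2.26 CPM against 0 to 0, Hoxc10 at 2.13 CPM against 0 to 0.17, Hoxd4 at 1.89 CPM against 0 to 0.098 and Hoxb5 at 1.96 CPM against 0 to 0.041. Hoxa2 (0.89 CPM against 0.41 to 0.90) and Hoxd1 (0.17 CPM against 0.11 to 0.29) lay at or within the range of the others, and Hoxa11, Hoxa13, Hoxb1, Hoxd12 and Hoxd13 had no read. Of the hindbrain markers, En1 stood at 5.73 CPM, En2 at 13.9 and Slc6a5 at 2.26, each the highest of all 192 libraries, and the 8 markers summed to 24.5 CPM where the group's lowest and median were 4.52 and 5.03. Gata3 was at 0.72 CPM, and the hindbrain markers Gabra6, Slc6a4, Fev and Tph2 were at 0.10, 0.069, 0.17 and 1.54 CPM. Its hippocampal neuron markers summed to 504 CPM, the lowest of the group (median 636), its oligodendrocyte markers to 5134 CPM (also the lowest), and its choroid plexus markers to 44.5 CPM (also the lowest). Its Htt level was 68.2 CPM. The part of other cells in this library's Hox reads was not tested.

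Female 4 of the zQ175 HTT-10150 group of 2[4]6 held a smaller excess, with 24 Hox genes read, all 24 above the other 7 libraries. Its choice too was by the Hox sum, from which a high count follows, and the share of all genes was not computed. Hoxb8 stood at 2.04 CPM against 0 to 0.026, Hoxc13 at 1.797 CPM against 0 to 0, Hoxb2 at 1.12 CPM against 0 to 0.055 and Hoxc4 at 1.04 CPM against 0 to 0.055. Hoxa7 was at 1.04 CPM against 0.029 to 0.63, Hoxa5 at 0.68 CPM against 0 to 0, Hoxc6 at 0.64 CPM against 0 to 0.053 and Hoxa2 at 0.60 CPM against 0 to 0. Hoxc8 and Hoxc12, read in the library of male 2, had no read in it. Its summed hindbrain markers were at 5.75 CPM (group median 3.19). Of these, En1 stood at 1.32 CPM, against a median of 0.02454 over all 192 libraries. The others lay closer to that median: En2 at 2.476 CPM (2.092), Tph2 at 1.398 (1.222) and Slc6a5 at 0.2796 (0.1355). Gata3, Slc6a4 and Fev were each at 0.07988 CPM (0.0496, 0.0557 and 0.06405), and Gabra6 was at 0.03994 (0.04865). The hippocampal neuron markers of this library summed to 612 CPM (the group's lowest), and its Htt was at 88.3 CPM.

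**Figure D5:**
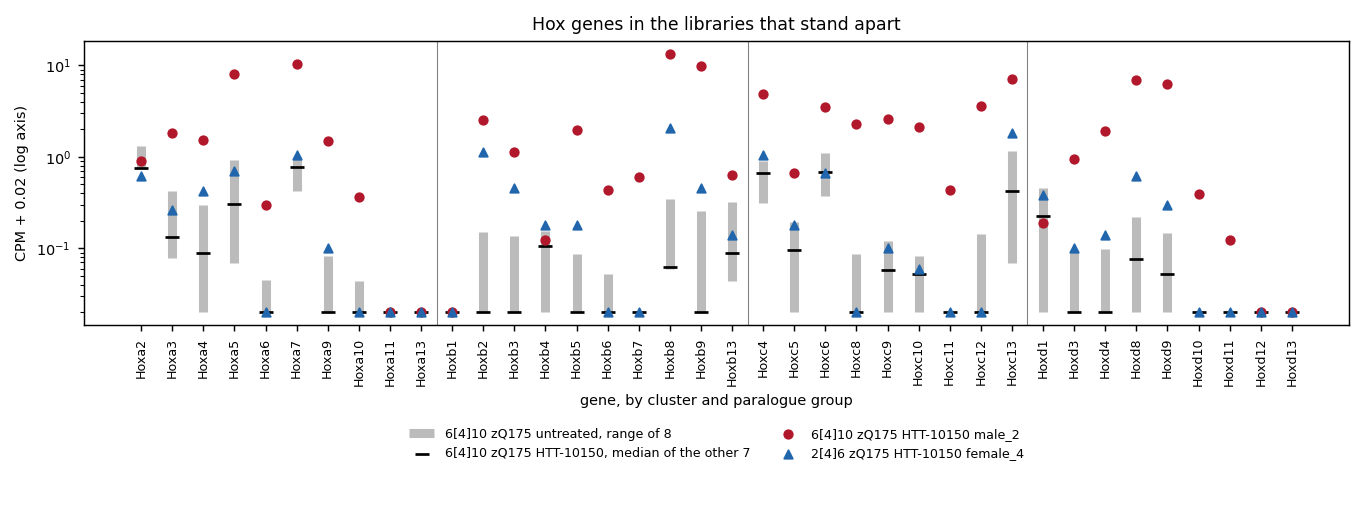
Level of each of the 38 Hox genes, as CPM plus 0.02 on a log axis, in the library that stands apart in 6[4]10 (red points) and the one in 2[4]6 (blue triangles), with the range of the 8 untreated zQ175 libraries of 6[4]10 (grey bars) and the median of the other 7 HTT-10150 libraries of 6[4]10 (black ticks). The red points exceed the grey bars most at Hoxd9, Hoxb8, Hoxb9 and Hoxd8 and lie below their upper ends at Hoxa2, Hoxb4 and Hoxd1.

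Among noncoding RNAs inside the clusters, Hoxaas2 and Hotairm1 were higher in untreated zQ175 mice of 10 months. Hoxaas2, which overlaps Hoxa3 on the other strand (chr6:52165674-52169564), averaged 0.61 ± 0.19 CPM in untreated zQ175 mice of 6[4]10 and 0.70 ± 0.17 in 2.6[8]10, against 0 and 0.0075 ± 0.021 in WT (adjusted p = 7.60e-12 and 9.06e-08). Whether the counting used strand is not given in the sources used here, so reads of Hoxaas2 and Hoxa3 in their shared stretch cannot be told apart. Hotairm1, before Hoxa2 on chromosome 6, averaged 0.12 ± 0.12 and 0.13 ± 0.094 CPM in zQ175 and was not read in untreated WT mice of 10 months (adjusted p = 2.66e-04 and 0.00526). These were 2 of 8 tested noncoding genes in 6[4]10 (all genes 2.45%) and 2 of 6 in 2.6[8]10 (all genes 2.56%); 17 had been listed, and Haglr in the Hoxd cluster was not called at 0.19 ± 0.12 and 0.32 ± 0.17 CPM. Hotair and Hottip had no read in any untreated library. Of 12 tested genes that flank the 4 clusters 1 was raised in each of these regimens, beside the same shares of all genes: Skap2, which lies before the Hoxa cluster on chromosome 6, stood at 17.3 ± 1.097 CPM in zQ175 against 12.5 ± 0.60 in WT in 6[4]10 (log2 0.47 ± 0.06, adjusted p = 2.16e-07) and 17.4 ± 1.66 against 13.2 ± 0.72 in 2.6[8]10 (adjusted p = 2.57e-04). The others were not called in either regimen: Snx10, Hibadh and Evx1 beside Hoxa, Skap1, Calcoco2 and Ttll6 beside Hoxb, Cbx5 and Smug1 beside Hoxc, and Evx2, Lnpk and Mtx2 beside Hoxd.

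Genes that act on or with the Hox clusters were read from lists that had been drawn up with earlier results of these data known. A count or list median above that of all genes can therefore follow from this choice and is not read as enrichment. The counts are for untreated zQ175 against WT mice of 10 months, where 2.45% of all genes were raised and 3.4% lowered in 6[4]10 and 2.56% and 2.89% in 2.6[8]10. Of 11 PRC2 genes, the Polycomb complex that writes the silencing mark on histone H3, 0 were raised and 1 lowered in 6[4]10 (Ezh1, log2 -0.12 ± 0.04, adjusted p = 0.0313), and 0 and 0 in 2.6[8]10. Of 18 PRC1 genes, the complex that binds this mark, 3 were raised and 0 lowered in 6[4]10, and 4 and 2 in 2.6[8]10. Raised in 6[4]10 were the subunits Cbx8 (0.70 ± 0.08), Cbx2 (0.52 ± 0.11) and Rybp (0.26 ± 0.04); in 2.6[8]10 Bmi1 (0.16 ± 0.04), Cbx2 (0.60 ± 0.14), Cbx8 (0.70 ± 0.07) and Rybp (0.23 ± 0.04) were raised and Ring1 (-0.24 ± 0.05) and Phc3 (-0.13 ± 0.04) lowered, on the log2 scale with SE. The list's median log2 difference was 0.015 and 0.0087, where that of all genes tested was 0.0008 and 0.0043. Of 9 trithorax and demethylase genes 0 were raised in 6[4]10 and 1 in 2.6[8]10 (Ash2l, 0.13 ± 0.04, adjusted p = 0.0291). Of the 9 Pbx, Meis and Pknox cofactors Pbx2 was lowered in 6[4]10 (-0.15 ± 0.04, adjusted p = 0.00291) and 0 changed in 2.6[8]10. Of the retinoic acid and Cdx genes, Rxra was raised in both (0.19 ± 0.06 and 0.18 ± 0.05) and Cyp26b1, which degrades retinoic acid, lowered in 6[4]10 (-0.52 ± 0.12, adjusted p = 0.00354). Among 39 other homeobox genes, 8 were raised and 0 lowered in 6[4]10, and 5 and 0 in 2.6[8]10, with Pax2 (4.33 ± 0.26 and 4.13 ± 0.26), Onecut1 (1.01 ± 0.15 and 1.16 ± 0.20) and Gsx1 (1.68 ± 0.27 and 1.84 ± 0.29) raised in both. En1, which is also among the hindbrain markers, was raised in both as well (3.39 ± 0.76 and 4.34 ± 0.74). The median of these 39 was 0.50 and 0.55. Between NTC mice, where 3.19% of all genes were raised and 4.53% lowered in 6[4]10 and 2.17% and 2.82% in 2.6[8]10, PRC1 had 3 raised and 0 lowered in each, Cbx2, Cbx8 and Rybp both times. PRC2 had 0 raised and 2 lowered in 6[4]10 (Ezh1 and Rbbp7) and 1 and 1 in 2.6[8]10 (Phf1 and Rbbp7). Trithorax and demethylase genes had 1 raised in 6[4]10 (Ash2l) and 0 in 2.6[8]10, and the cofactors 1 raised and 1 lowered in 6[4]10 (Meis1 and Pbx2) and 0 in 2.6[8]10. The retinoic acid and Cdx genes had 1 raised and 4 lowered in 6[4]10 and 0 and 2 in 2.6[8]10, with Cyp26b1 lowered in both and Rxra raised in 6[4]10 (in 2.6[8]10 0.14 ± 0.05, adjusted p = 0.0828). The other homeobox genes had 6 and 5 raised and 0 lowered, Pax2 and Onecut1 in both, while Gsx1 and En1 were called in 6[4]10 but not in 2.6[8]10 (0.81 ± 0.32 and 1.93 ± 0.72, adjusted p = 0.147 and 0.117).

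Markers of other cells and regions were read in the same libraries. The 8 hindbrain markers summed to 3.98, 4.96 and 6.17 CPM (lowest, median and highest) in untreated zQ175 mice of 6[4]10 and 2.37, 3.35 and 4.33 in WT, and to 4.08, 4.98 and 5.73 and 2.86, 3.84 and 4.31 in 2.6[8]10, higher in median in zQ175 with overlapping ranges. At 6 months they were 3.29, 3.84 and 3.99 and 3.09, 3.71 and 4.63 CPM. Every untreated group had reads of each of the 8. The 5 hippocampal neuron markers did not overlap between the genotypes, at 568, 644 and 697 CPM against 774, 797 and 832 in 6[4]10 and 569, 604 and 668 against 699.7, 769 and 889 in 2.6[8]10. Choroid plexus markers reached 9360 CPM in a zQ175 and 8618 in a WT library of 2.6[8]10, with medians of 65.03 in zQ175 and 69.6 in WT in 6[4]10 and 130.1 and 112.7 in 2.6[8]10. Meningeal markers had medians of 53.4 in zQ175 and 60.3 in WT in 6[4]10 and of 123 and 74.2 in 2.6[8]10, where they ran from 67.4 to 390 and from 56.6 to 391 CPM. Medians of the erythroid markers were 306 and 300.1 CPM in 6[4]10 and 387 and 329 in 2.6[8]10. In 6[4]10 those of the microglial markers were 214 and 209.6, of the endothelial markers 130.4 and 134, of the mural markers 119.6 and 114.9, and of the lymphocyte markers 0.43 and 0.37. In 2.6[8]10 the microglial medians were 225 and 213, the endothelial 136.5 and 145.7, the mural 128.4 and 129.6, and the lymphocyte 0.51 and 0.43. Astrocyte markers did not overlap between the genotypes either, at 2603, 2631 and 2996 CPM in zQ175 against 3078, 3170 and 3305 in WT in 6[4]10 and 2270, 2389 and 2683 against 2821, 3013 and 3333 in 2.6[8]10. Oligodendrocyte medians were 6556 and 6934 CPM in 6[4]10 and 6076 and 6610 in 2.6[8]10. The part of any of these in the Hox differences was not tested.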

How the data were processed

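RNA of 192 mouse hippocampus libraries was read from 1 table of expected counts per gene, deposited by the authors; RSEM and GRCm38 are named per the submitters' processing notes, versions and strand setting not given in the sources used here. The deposited expected counts were already whole numbers, so rounding changed nothing. Of 41135 features 41128 had a gene identifier, and the other 7, which held 6.85e-06 percent of counts, were left out. Members were matched by GENCODE vM21 symbol; 1 further gene of the family and 2 genes of the other lists are not reported here and are in none of the lists' counts or sums. The members and gene lists were chosen with earlier results of these data known.

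Library totals ran from 8.44 to 65.7 M reads. Levels are CPM, counts per M (mega) reads of library totals scaled by TMM factors. Each regimen's 64 libraries were fitted with edgeR 4.0.16 (R 4.3.3, limma 3.58.1) by the quasi-likelihood test, with 8 groups and sex as terms, over all genes with at least 1 read. Benjamini-Hochberg adjustment ran over all genes tested, and a gene was called at an adjusted p under 0.05. Comparisons between regimens used 1 fit of all 192 libraries. The script was tested on simulated data. Pooled reads were compared with exact 95% counting intervals and, where a group had none, a floor of 3 counts over the group; both cover counting error only. Alternatives were DESeq2 1.42.0, filterByExpr, no sex term, the replicate label as a block, all libraries in 1 model, left-out replicates, left-out libraries not matching their labelled sex or standing apart, at least 3 reads for detection, and totals without TMM factors. Values were given for genes with a group mean of at least 0.2 CPM or a call in any comparison; from each list up to 4 members of smallest adjusted p were to be named, with all flanking genes, and further list members named were chosen after their values were seen. Python 3.11.15, pandas 2.3.3, scipy 1.17.1 and matplotlib 3.10.9 were used.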

Additional observations from a re-analysis of the deposited data

Results flagged for a closer look

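In groups of 8, a library was singled out where its gap to the nearest other, over the group's whole range, exceeded the 95% critical value of Dixon's test. In all, 99 groups of values were tested and 27 stood out, where chance alone gives about 1 in 20. Of the 27, 22 came from the libraries that stand apart. Those 22 cannot be set against that rate, since both libraries had been picked partly by the same gap in their Hox sum. Genes entered at a group mean of at least 0.2 CPM. In the zQ175 HTT-10150 group of 6[4]10, Hoxa3, Hoxa4, Hoxb2, Hoxb5, Hoxb8 and Hoxb9 reached that mean only through male 2. So did Hoxc8, Hoxc9, Hoxc10, Hoxc12, Hoxd4, Hoxd8 and Hoxd9. In the same group of 2[4]6, Hoxb8 and Hoxc13 reached it only through female 4. The flags of all these genes follow in part from how they entered. Male 2 of the zQ175 HTT-10150 group of 6[4]10 stood out in the summed Hox level (98.99 CPM) and in 18 genes. In the Hoxa cluster these were Hoxa3 at 1.78, Hoxa4 at 1.51, Hoxa5 at 7.99 and Hoxa7 at 10.4 CPM. In Hoxb they were Hoxb2 at 2.50, Hoxb5 at 1.96, Hoxb8 at 13.4 and Hoxb9 at 9.78 CPM. In Hoxc they were Hoxc4 at 4.87, Hoxc6 at 3.46, Hoxc8 at 2.26, Hoxc9 at 2.57, Hoxc10 at 2.13, Hoxc12 at 3.603 and Hoxc13 at 7.14 CPM, and in Hoxd Hoxd4 at 1.89, Hoxd8 at 6.999 and Hoxd9 at 6.28 CPM. Female 4 of the zQ175 HTT-10150 group of 2[4]6 stood out in the sum (12.7 CPM), Hoxb8 (2.04 CPM) and Hoxc13 (1.80 CPM).

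The other 5 came from 4 libraries. Female 4 of the zQ175 NTC group of 2.6[8]10 was high in the sum (5.81 CPM) and in Hoxa7 (1.05 CPM), female 4 of the zQ175 HTT-634.486 group of 2.6[8]10 in the sum (3.94 CPM), male 2 of the WT NTC group of 2[4]6 in the sum (0.96 CPM), and female 2 of the untreated zQ175 group of 6[4]10 in Hoxc6 (1.09 CPM).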

How the results depend on the processing

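Counts of called Hox genes depended on the processing, and most Hox genes had few reads per library. Counts in this section stand without the share of all genes in the same setting. They are therefore not read as results about the Hox genes. With edgeR's filterByExpr, which tests fewer genes, the genotype counts were 5 (6[4]10) and 3 (2.6[8]10) in untreated mice, 0, 5 and 3 under NTC (2[4]6, 6[4]10 and 2.6[8]10), 0 and 5 under HTT-10150 (2[4]6 and 6[4]10) and 5 under HTT-634.486 in 6[4]10. The treatment counts were then 0 for NTC against untreated in 2.6[8]10, 0 and 1 for HTT-10150 against NTC (2[4]6 and 6[4]10), 1 for HTT-634.486 against NTC in 2.6[8]10, 0 and 0 between the active siRNAs (2[4]6 and 6[4]10), 1 and 1 for HTT-10150 and HTT-634.486 against untreated in 2.6[8]10, and 3 for the interaction of HTT-10150 against untreated with regimen. Over the genotype and treatment comparisons within a regimen, 36 of the calls on Hox genes were on genes that this filter kept. All 36 stayed called in the same direction, and the other calls were on genes that the filter removed. DESeq2, which gave no adjusted p for 64 of the calls on Hox genes over all comparisons, counted 6 and 4 in untreated mice, 0, 6 and 1 under NTC and 0 and 11 under HTT-10150, in the same order of regimens. Its treatment counts were 0 for NTC against untreated in 2.6[8]10, 0 and 1 for HTT-10150 against NTC, 0 for HTT-634.486 against NTC, 0 between the siRNAs in 2[4]6, and 0 for each call against untreated. In 1 model over all 192 libraries the counts that moved were 0 for genotype untreated and 5 for genotype under HTT-10150 in 2[4]6, 0 for NTC against untreated and 1 for HTT-634.486 against NTC in 2.6[8]10, and, in 6[4]10, 14 for HTT-10150 against NTC, 7 against HTT-634.486 and 7 against untreated, with 0 for HTT-634.486 against untreated; the cause was not tested. Without sex as a covariate they were 0 for NTC against untreated in 2.6[8]10, 5 and 5 for HTT-10150 against NTC and against HTT-634.486 in 6[4]10, and 2 for genotype under HTT-10150 in 2[4]6. Without the libraries whose sex-linked transcripts go against their label, HTT-10150 in 6[4]10 counted 7 against NTC, 5 against HTT-634.486 and 1 against untreated; the cause was not tested for either setting.

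Without the library that stands apart in its regimen, an alternative chosen after seeing the data, the genotype counts in 2[4]6 were 2 untreated, 2 under NTC and 0 under HTT-10150, and 12 under HTT-10150 in 6[4]10. Without it HTT-10150 counted 0 against NTC and 0 against HTT-634.486 in both regimens, and its interaction with regimen against untreated 0. The log2 changes that reversed there were those of HTT-10150 in 2[4]6 against NTC for Hoxc13 (-0.0061), against HTT-634.486 for Hoxa5 (-0.91) and Hoxb8 (-0.039), and of genotype under HTT-10150 in 6[4]10 for Hoxc12 (-0.035) and Hoxc8 (-0.043). Comparing zQ175 mice directly between regimens, also chosen after seeing the data, gave 8 (6[4]10 against 2[4]6) and 9 (2.6[8]10 against 2[4]6) where the genotype-by-regimen interaction gave 0. The other comparisons of treatment and regimen added then are named where they are given.

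With both mice of a replicate number left out, the genotype counts ran from 0 to 1 untreated in 2[4]6, 0 to 0, 6 to 9 and 5 to 9 under NTC (2[4]6, 6[4]10 and 2.6[8]10), 0 to 2 and 8 to 24 under HTT-10150 (2[4]6 and 6[4]10) and 4 to 8 under HTT-634.486 in 6[4]10. Treatment counts ran from 0 to 1 for NTC against untreated in 2.6[8]10, 0 to 0 and 0 to 2 for HTT-10150 against NTC (2[4]6 and 6[4]10), 0 to 1 for HTT-634.486 against NTC in 2.6[8]10, 0 to 2 and 0 to 0 between the siRNAs (2[4]6 and 6[4]10), 0 to 4 for HTT-10150 against untreated in 2.6[8]10, and 0 to 0 and 2 to 5 for HTT-634.486 against untreated (6[4]10 and 2.6[8]10). Some log2 changes turned negative without replicate 4, which holds female 4, in 2[4]6, and without replicate 2, which holds male 2, in 6[4]10. In each pair here the negative value is without that replicate, and the positive one is from a fit that keeps it. In 2[4]6 they were HTT-10150 against NTC (Hoxc13, -0.028 and 5.92) and against HTT-634.486 (Hoxa5, -1.20 and 4.64, Hoxb8, -0.32 and 6.24, and Hoxc13, -0.0090 and 6.05). In 6[4]10 they were genotype under HTT-10150 (Hoxc12, -0.010 and 6.91, and Hoxc8, -0.0056 and 6.14).

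With the replicate label (sex and number) as a block, HTT-10150 counted 0 against NTC in 2[4]6 and 0 in 6[4]10, and 2 against HTT-634.486 in 2[4]6, and the other 27 counts stayed within 1.5 times. The labels do not say that equal numbers share a litter or day, and libraries with the same label deviated together with mean correlations of 0.054, 0.014 and 0.047 in 2.6[8]10, 2[4]6 and 6[4]10. Library totals without TMM factors moved none of 17 levels by more than 1 SD.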
